A study of Mus musculus with 8 samples.

Results

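Prrx1, also written Prx1, is the mouse gene whose promoter drives the Cre recombinase in this study, and its locus was examined as the set of all called peaks with a midpoint on chromosome 1 from 165150000 to 165270000 (mm9), a window of 120 kb. Of the 88367 peaks in the 6 deposited lists, 3 lay there. They were 2 H3K9me3 peaks of knockout cells and 1 KDM4B peak of wild-type cells. The locus was chosen by the width of a knockout H3K9me3 peak in it, so the presence and width of that peak are given as a description, with no test.

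Prrx1 encodes a homeobox transcription factor of the limb and craniofacial mesenchyme, and it is widely used to mark skeletal progenitor cells. The Prx1-Cre transgene carries regulatory sequence copied from this gene in front of Cre, so cells with the transgene hold that sequence in addition to the native locus, and sequencing reads from both align to the same place. KDM4B takes methyl groups off lysine 9 of histone H3. Trimethylation of that residue, H3K9me3, is a mark of repressed chromatin.

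The cells were primary mesenchymal stem cells from mouse bone marrow, taken after 4 hours of osteogenic induction. KO cells came from Prx1Cre; Kdm4bf/f mice, and WT cells came from Prx1Cre; Kdm4bw/w mice, so the labels give the Cre transgene to both genotypes. Cre in these mice acts in the cells in which the Prx1 promoter is or was active. Chromatin immunoprecipitation sequencing (ChIP-seq) was done for H3K9me3, KDM4B and total histone H3, with 1 library per genotype for each, so no difference between genotypes could be tested. The sources used here do not say how many animals supplied a library, or how many copies of the transgene each genotype carried. The 2 input libraries, 1 per genotype, were not analysed here. Depth is known for the H3 WT library alone, with 40420466 tags after filtering against 45099322 in its control. Peak positions carry no level of Prrx1 RNA, and no other marker could be read from them, so the labelled cell type was not checked.

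The promoter of Prrx1 is shown because the locus was examined as the source of the Cre driver; which of these bases the transgene carries was not determined. The sequence comprises the 250 bases before the gene start, on the minus strand of chromosome 1, from RefSeq (GRCm38.p6), written 5′ to 3′. Capitals mark the longest run made only of C and T.
Prrx1 promoter: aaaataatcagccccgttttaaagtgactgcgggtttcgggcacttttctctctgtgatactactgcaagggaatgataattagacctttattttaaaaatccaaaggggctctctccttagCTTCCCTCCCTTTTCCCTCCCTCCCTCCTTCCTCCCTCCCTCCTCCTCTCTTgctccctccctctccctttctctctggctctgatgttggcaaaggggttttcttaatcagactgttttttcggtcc
The run spans 52 bases, from 128 to 77 bases before the gene start. A run at least as long was present in 0.0974% of 32841 promoters of the same length, whose median longest run was 9 bases. CpG, the site of DNA methylation, occurred 4 times, against a median of 6, and the GC content was 47.6%, against a median of 52.4%. The letters TAAT or their reverse complement ATTA, the core that many homeodomain proteins recognise, occurred 4 times with overlaps counted. At least as many occurred in 9.63% of promoters, and at least 1 occurred in 54.9%. These letter matches are a description and not binding sites. The promoter is from another build than the peaks, so its distance to them is not given.

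H3K9me3 was called at Prrx1 in KO cells and not in WT cells. The KO library had a wide peak from 165243588 to 165246174, with a width of 2587 bp, and a narrow one from 165242193 to 165242402, with a width of 210 bp. The WT library had 0 peaks in the window. The KO peaks covered 2797 bp, or 2.33% of the window, against 0 bp in WT. Both KO peaks thus lacked a WT counterpart, as did 99.2% of all 55306 KO H3K9me3 peaks, so the absence from WT is the usual state of this list. The WT list held 943 peaks in all, and a window without any is its usual state too: 1.92% of 21999 tiles of 120 kb contained a WT peak. The nearest WT H3K9me3 peak, from 172873610 to 172873836, lay 7.63 Mb away.

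The 2 KO peaks formed a pair separated by 1185 bp, the narrow one on the lower coordinate side. The narrow peak was ordinary in size: 73.2% of KO peaks were at least as wide, and the narrowest in the list were 199 bp. The wide peak was 12.3 times as wide as its neighbour and 10.2 times the median of the other KO peaks on chromosome 1. Peaks of 1 kb or more made up 0.533% of the KO list, and 0.0506% were at least as wide as this one. The median width over the list was 256 bp.

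**Figure D1:**
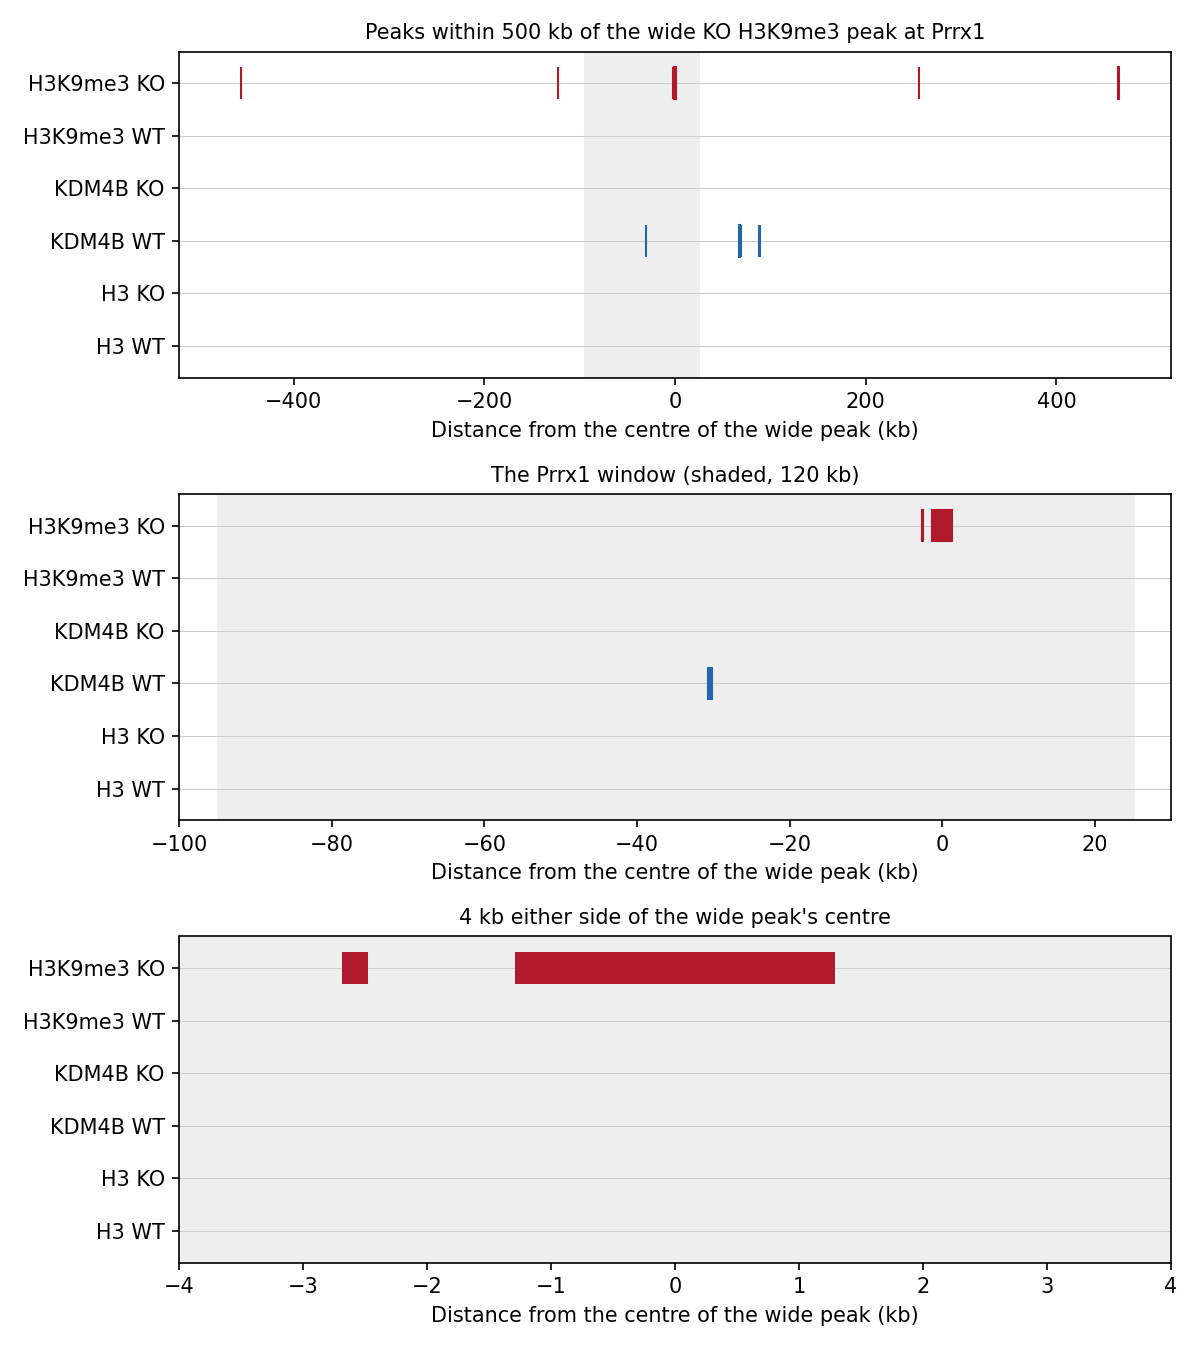
Called peaks around Prrx1 in the 6 lists, by distance in kb from the centre of the wide KO H3K9me3 peak, at 3 scales (outlines add up to 1 point of width to narrow peaks in the upper 2 panels). Shading marks the 120 kb window: the KO H3K9me3 row holds the pair of 210 and 2587 bp, the KDM4B WT row holds 1 peak at -30.4 kb, and the other 4 rows are empty.

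KDM4B was called once at Prrx1, in WT cells, and away from the wide H3K9me3 peak. The KDM4B KO library had 0 peaks in the window. The KDM4B WT peak ran from 165214247 to 165214755, with a width of 509 bp, which is the median width of its list. None of the 32017 KDM4B WT peaks of the genome overlapped a KDM4B KO peak (100% without one), so the absence in KO cells at Prrx1 is shared with every other site. The distance from this KDM4B peak to the narrow KO H3K9me3 peak was 27.4 kb, and that to the wide one was 28.8 kb. A KDM4B WT peak with no KO H3K9me3 peak within 10 kb was common, at 37.3% of the list.

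Neither KO H3K9me3 peak at Prrx1 overlapped a KDM4B WT peak, 0 of 2. They are a close pair at 1 locus, so no share was drawn from them. Over the whole KO list 8706 of 55306 did, or 15.7% (95% exact binomial interval 15.4 to 16.0%, counting error only). Neither had a KDM4B WT peak within 10 kb, as was the case for 59.6% of KO peaks. The called KDM4B and the called H3K9me3 at this locus lay at separate places, which is the usual state of the KO list.

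Total H3 gave no peak at Prrx1 in either genotype. The H3 KO list had 0 peaks in the window, and its nearest peak on chromosome 1, from 87502094 to 87502200, lay 77.7 Mb from the wide H3K9me3 peak. The H3 WT list also had 0, and its nearest, from 104524793 to 104524869, lay 60.7 Mb away. The H3 lists hold 28 peaks in KO and 38 in WT in all. The KDM4B KO list holds 35, of which 0 lie on chromosome 1. Each of these 3 lists reached 0.0682% of the 120 kb tiles, so a window without their peaks is the usual state.

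The wide KO peak was called with 1 of the 3 antibodies in KO cells, and with none of them in WT cells. Tiles of 120 kb with a peak were 0.0682% for KDM4B KO, H3 KO and H3 WT. They were 1.92% for H3K9me3 WT and 33.9% for KDM4B WT. Having no peak at a given place is thus the usual state of each of these lists. The mitochondrial genome, which carries no histones, had 5 peaks covering 10909 bp in the H3K9me3 KO list, against 0 in H3K9me3 WT. The KDM4B KO and H3 KO lists had 0 peaks there, and the H3 WT list had 2, covering 217 bp. The lists differ in size, with 55306 peaks in H3K9me3 KO against 943 in H3K9me3 WT, 35 in KDM4B KO and 28 in H3 KO. The mitochondrial counts were therefore not compared, and any bearing on Prrx1 was not tested. Extra copies of Prrx1 sequence in KO cells and H3K9me3 cannot be told apart from these lists. Nor can H3K9me3 at the native gene and at the transgene's copy, since reads from shared sequence align to the same place. Whether the transgene holds the sequence under the wide peak was not determined. A difference in transgene copies between genotypes was not tested.

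The surroundings of Prrx1 held single narrow H3K9me3 peaks and a few KDM4B peaks. Within 500 kb on either side of the wide peak's midpoint, the KO H3K9me3 list held 6 peaks, against a mean of 20.9 per Mb over the tiled genome, and the WT H3K9me3 list held 0, against 0.357 per Mb. The KDM4B KO list held 0, and the KDM4B WT list held 6, against 12.1 per Mb. These means are not typical values, since the median tile of 120 kb held 0 peaks of the KO H3K9me3 list and 0 of the KDM4B WT list. The KO H3K9me3 peaks just outside the window were 199 bp wide at 165122282, 27.5 kb below it, and 204 bp wide at 165500973, 231 kb above it. The other 2 were 199 bp wide at 164789127 and 412 bp wide at 165709584. The 5 other KO peaks in this stretch thus ranged from 199 to 412 bp with a median of 204 bp, against 2587 bp for the wide peak at Prrx1. The nearest KDM4B WT peaks outside the window formed a group of 3 with midpoints 67.8 to 69.1 kb above the wide peak's midpoint and a pair at 88.4 and 89.0 kb. They were 237 to 772 bp wide, and no KO H3K9me3 peak overlapped them. In GRCm38.p6 the neighbouring protein-coding genes of Prrx1 are Mroh9 and Gorab; which of these peaks lie in them was not determined, since an annotation of mm9 was not used here.

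The window was set beside tiles of the same length over the genome. At least 2 KO H3K9me3 peaks were present in 31.9% of 21999 tiles of 120 kb, and at least 1 KDM4B WT peak was present in 33.9%. At least 2797 bp of KO H3K9me3 was present in 7.98% of tiles. Of these 2797 bp, 2587 are the wide peak by which the locus was chosen, so the covered length is a description too. Among the 1711 tiles with exactly 2 KO peaks, the median covered length was 559 bp, and the only one to reach 2797 bp was the tile that holds the Prrx1 pair itself. A peak of at least 2587 bp was present in 10 tiles, or 0.0455%.

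**Figure D2:**
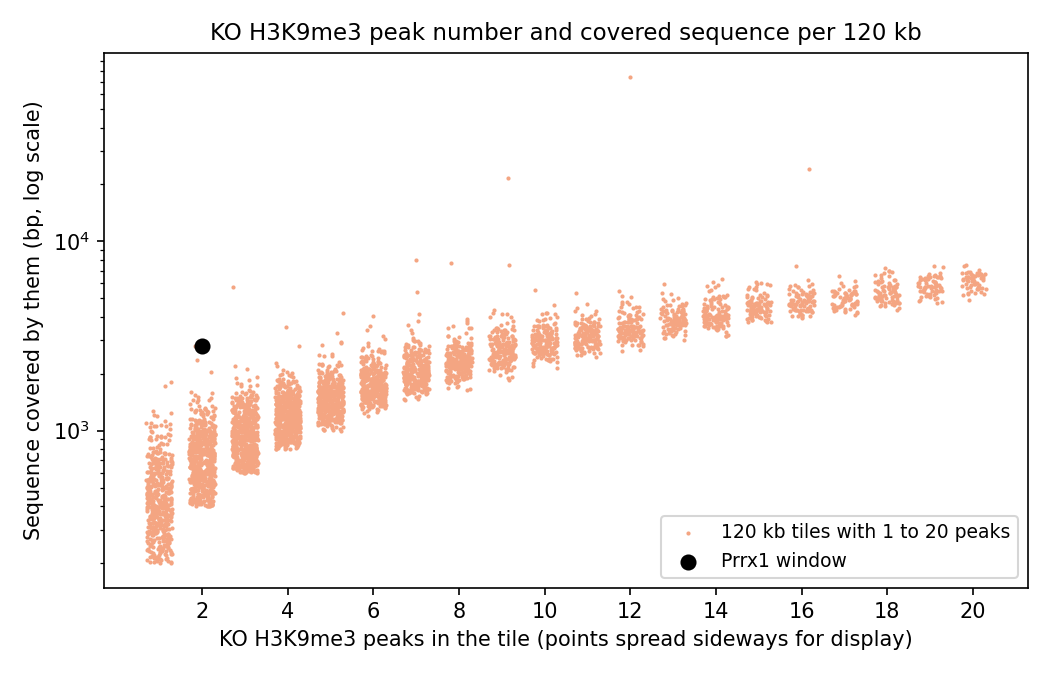
Sequence covered by KO H3K9me3 peaks (bp, log scale) against their number in each 120 kb tile of the genome, for tiles with 1 to 20 peaks. The Prrx1 window, with 2 peaks and 2797 bp, lies above the tiles with the same number of peaks, whose median is 559 bp, apart from the tile that holds the same pair.

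The KO H3K9me3 peaks wider than the one at Prrx1 mostly had WT counterparts. Of these 27, 24 overlapped a WT H3K9me3 peak, 2 lay on the mitochondrial sequence, and the remaining 1 lay on chromosome 1 from 90172316 to 90175080, with 11 WT peaks within 10 kb. All 27 had other KO peaks within 10 kb, and off the mitochondrial sequence the fewest was 2. Peaks of at least 2587 bp lay in only 10 tiles of 120 kb, the Prrx1 tile included. Several of the wider peaks thus share a tile, and these counts are not of separate loci. The wide peak at Prrx1 had 1 other KO peak and 0 WT peaks within that distance. Of all KO peaks, narrow ones included, 98.5% had no WT peak so near.

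**Figure D3:**
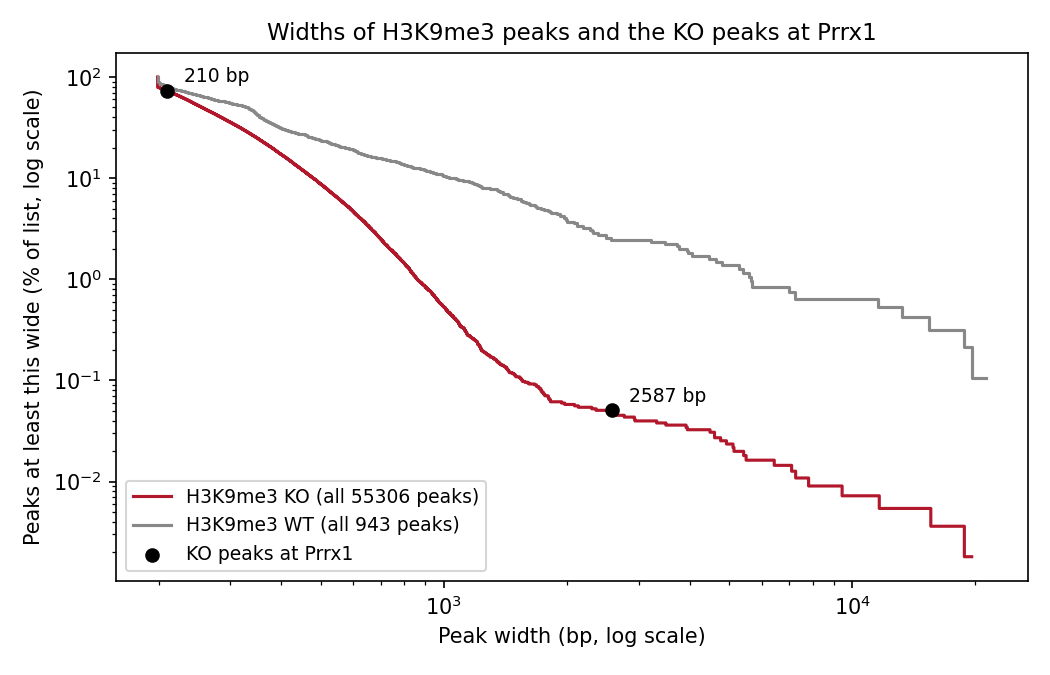
Share of H3K9me3 peaks at least as wide as each width (both axes on log scales) in KO and WT cells, with the KO peaks at Prrx1 as black points. The peak of 210 bp sits where 73.2% of KO peaks are at least as wide, and the peak of 2587 bp where 0.0506% are.

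The wide KO peaks without a WT counterpart were mostly narrower than the one at Prrx1, and some lay at KDM4B sites. On the 19 autosomes, the X and the Y, 213 KO peaks of 1 kb or more overlapped no WT H3K9me3 peak, with a median width of 1121 bp. A KDM4B WT peak overlapped 93 of them, or 43.7%, and 80, or 37.6%, had none within 10 kb. Over all KO H3K9me3 peaks these shares were 15.7% and 59.6%. A longer peak overlaps another list more easily by its length alone, and this was not corrected for. The peak at Prrx1 was the widest of these 80 and 1.24 times as wide as the next, of 2089 bp, on chromosome 19. Of the 80, 21 had at most 1 other KO peak within 10 kb, as at Prrx1. Some of these had fewer than Prrx1, with 0, such as a peak of 1388 bp on chromosome 11. In 51 of the 213 the nearest KDM4B WT peak was at least as far as from the Prrx1 peak, and in 29 the nearest WT H3K9me3 peak was, so neither distance alone set Prrx1 apart.

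The width at Prrx1 stood further above its surroundings than that of any other of these peaks that could be compared. The ratio of a peak's width to the median of the other KO peaks within 500 kb was 12.7 at Prrx1. It rests there on 5 neighbours, the fewest allowed, whose median of 204 bp is close to the narrowest width in the list, 199 bp. Among the 207 peaks of the 213 with at least 5 such neighbours, Prrx1 included, the median ratio was 4.29 and the next highest was 7.81. Since the peak was picked for its width, this order is a description.

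**Figure D4:**
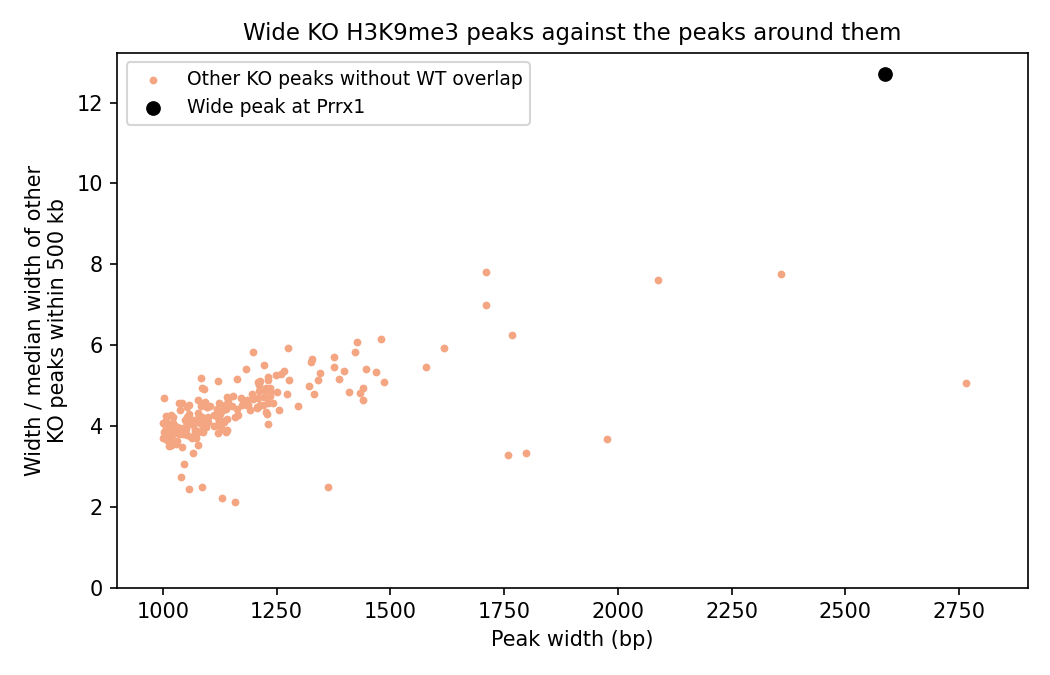
Width of KO H3K9me3 peaks of 1 kb or more without a WT counterpart (bp) against the ratio of that width to the median of the other KO peaks within 500 kb, for 207 peaks. The peak at Prrx1 has a ratio of 12.7, and the next highest is 7.81.

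The KO peaks next to it in width, among those without a WT counterpart off the mitochondrial sequence, lay in busier surroundings. The next wider, on chromosome 1 from 90172316 to 90175080 with 2765 bp, had 12 other KO and 11 WT H3K9me3 peaks within 10 kb and overlapped 1 KDM4B WT peak. The next narrower, on chromosome 15 from 76011234 to 76013592 with 2359 bp, had 16 other KO and 4 WT H3K9me3 peaks within 10 kb and overlapped 4 KDM4B WT peaks. Among these 6 peaks, 1 was also free of WT H3K9me3 and KDM4B nearby, on chromosome 19 from 7496212 to 7498300, with 2089 bp. It had 0 WT H3K9me3 and 0 KDM4B WT peaks within 10 kb, and its nearest KDM4B WT peak lay 39.2 kb away. The peak at Prrx1 had 1 other KO peak within 10 kb, and the chromosome 19 peak had 5. Outside this set, a narrower peak on chromosome 2 from 155890912 to 155892398, with 1487 bp, picked after its values were seen, had 1 other KO peak within 10 kb. Its nearest KDM4B WT peak lay 56.8 kb away and its nearest WT H3K9me3 peak 9.29 Mb away.

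The 3 next in width after the chromosome 19 peak were on the X, with 1977 and 1799 bp, and on chromosome 14, with 1768 bp. They had 10, 8 and 10 other KO peaks within 10 kb, 8, 5 and 0 WT H3K9me3 peaks, and 5, 4 and 4 KDM4B WT peaks. Those on the X, from 166415975 to 166417951 and from 166412417 to 166414215, lie within 10 kb of each other. Each is thus counted among the other's neighbours, and both belong to 1 locus. In this set of 7, Prrx1 had the fewest other KO peaks nearby. None of the 7 had a KDM4B KO, H3 KO or H3 WT peak within 10 kb. Each of those lists reached only 0.0682% of the 120 kb tiles, so this absence is their usual state and not a trait of the set.

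**Figure D5:**
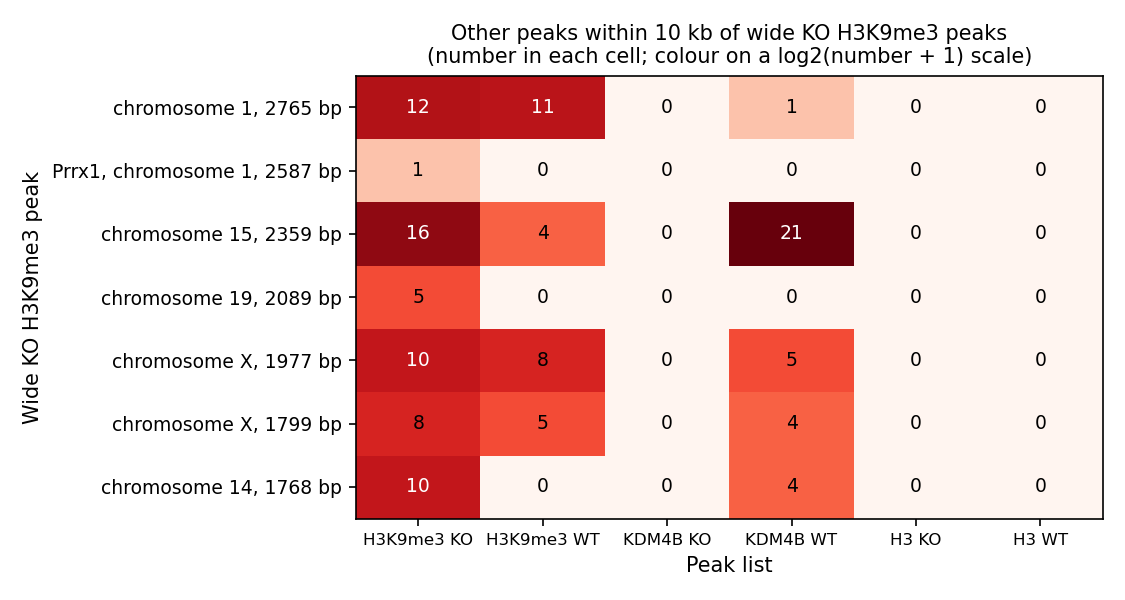
Number of other peaks of each list within 10 kb of the wide KO H3K9me3 peak at Prrx1 and of the 6 KO peaks nearest in width without a WT counterpart (1 wider and 5 narrower). The Prrx1 row holds 1 other KO H3K9me3 peak and 0 in the other 5 lists, and the other rows hold 5 to 16 other KO H3K9me3 peaks. Both peaks on the X lie within 10 kb of each other, so their rows are 1 locus.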

How the data were processed

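The submitters' processing notes name Bowtie, SAMtools and the builds mm9 and hg19 for all samples, with MACS as the peak caller of the KDM4B samples and MACS2 of the others. Of the 6 files the authors deposited, 5 hold chromosome, start and end alone, so their peaks have no score and could not be ranked by strength. The sources used here do not give their thresholds, controls and depths. Per the file headers, the H3 WT table came from MACS2 2.1.4 run against a control at a q-value threshold of 0.05, and only its positions were used. A yeast spike-in was added for H3K9me3, per the labels, without a statement of its use in peak calling.

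A peak belonged to Prrx1 when its midpoint lay in the window. Overlap meant at least 1 shared bp, and distances are between peak edges unless midpoints are named. Tiles of 120 kb covered the 19 autosomes, the X and the Y up to the last peak of any list. The share of all KO H3K9me3 peaks that overlap KDM4B WT carries a 95% exact binomial (Clopper-Pearson) interval. Other shares are given without one. Work was done in Python 3.11.15 with scipy 1.17.1. Overlap counts equalled those of bedtools 2.31.1 for all 30 ordered pairs of lists and were tested on simulated data. The RefSeq tables are of GRCm38.p6, so they gave the promoter sequence and gene order only. Named peaks were all those in the window and within 500 kb, plus the nearest peaks of the other lists. The next wider (up to 5) and the 5 next narrower KO peaks without a WT counterpart were named too. The peaks of 1388 bp on chromosome 11 and 1487 bp on chromosome 2 were named outside this rule, with their values seen. Other limb mesenchyme genes were to be counted only with an mm9 annotation. The comparisons with wide peaks by surroundings and by local width were chosen after the peaks were seen. The locus and all rules were chosen with earlier results of these data known.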

Additional observations from a re-analysis of the deposited data

How the results depend on the processing

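Of 36 values recomputed under other settings, 26 kept to the reported one and 10 did not. The 10 were all of the recomputed tile shares, width ranks and width ratios. The 26 were peak counts, covered lengths and overlaps, mostly 0, that these settings could hardly change. The nearest called peak outside the window lay 27.5 kb from it, and the 1185 bp between the KO pair exceeds the merging distance. They therefore do not measure how stable the results are. The 3 peaks and their covered lengths did not change when any base in the window counted or when peaks within 1 kb were merged, and the KO H3K9me3 peaks overlapping KDM4B WT stayed at 0 when 50% of the shorter peak or peaks within 1 kb were used. The share of tiles with at least as many KO H3K9me3 peaks, 31.9%, became 100% with tiles of 60 kb, since the halved window holds 0 of them, 36.5% with tiles of 240 kb and 34.1% on autosomes. For KDM4B WT, 33.9% became 23.8%, 24.8% and 35.3%. The wide peak was number 28 by width, 16 on autosomes and 640 after merging within 1 kb, which joins neighbouring peaks elsewhere but not the Prrx1 pair. Its width over the median around it was 12.3 in the window, 12.7 within 500 kb and 10.2 on chromosome 1. No paired analysis was possible because each group has 1 library. A missing peak means only that none was called at an unknown depth and threshold.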
